A study of Sus scrofa with 24 samples.

Results

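Keratins, the intermediate filament proteins of epithelial cells, were measured in back muscle of pigs with much or little fat inside the muscle. Every row of the deposited table whose gene symbol is KRT followed by digits was taken. This gave 3 genes, KRT14, KRT8 and KRT10, each with 1 transcript, among 12017 genes and 22154 transcripts in all. KRT14 and KRT8 had been singled out in earlier work on these data because their levels were lower in high fat muscle, so their high against low difference is given below as a description, with no test. KRT10 was taken by its symbol alone.

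The samples were longissimus dorsi, the long muscle along the spine, of 24 F1 pigs of Duroc boars and Luchuan sows, 12 high and 12 low in intramuscular fat (IMF). Both groups shared the cross, diet, farm, abattoir and an age of 210 ± 6 days, and no animal carried a treatment or engineered allele. PolyA RNA was sequenced as read pairs of 150 bases, 1 library per animal. IMF content, litter and sex of the single animals were not used here. An animal's number follows the accession order of its group and is only a name.

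Keratins form filaments from pairs of 1 acidic (type I) and 1 basic (type II) chain. KRT8 is the type II keratin of simple epithelia, where it pairs with type I partners such as KRT18 and KRT19. KRT14 is the type I keratin of the basal layer of the epidermis, and KRT10 that of the layers above it. In striated muscle, KRT8 and KRT19 are known at the costameres, the sites that tie the contractile apparatus to the fibre membrane. Bulk muscle also holds nerve, vessel, fat and connective tissue cells, and in such tissue fewer cells of a type and less RNA per cell cannot be told apart.

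The position of the row named KRT14 goes against that symbol. In the table it lies on chromosome 12, plus strand, 21115624 to 21119396 of Sscrofa11.1, a reference transcript of 6 exons and 1693 bases. RefSeq places KRT19 at 21115453 to 21119115 of this chromosome, and 3492 bases, or 92.6% of the listed span, overlap it. No RefSeq row on this build is named KRT14, while 98.3% of 7601 symbols compared lie where RefSeq places them. The symbol KRT14 is kept below as the name the table gives, for a transcript that lies at RefSeq's KRT19. KRT8 lies on chromosome 5, minus strand, 18170354 to 18180215, with 9 exons and 3716 bases, and overlaps 99.2% of RefSeq's KRT8. Of the listed span 79.0% lies within it, and 2069 bases run on past RefSeq's 3′ end of the gene. KRT10 is a transcript added by the assembly, on chromosome 12, plus strand, 21644322 to 21645642, with 2 exons and 1131 bases. It lies wholly within RefSeq's KRT10 and covers 30.2% of it, so it reads only a piece of that gene. RefSeq names 36 keratins, 20 on chromosome 12 and 16 on chromosome 5. A transcript is in the table only where 19 or more of the 24 libraries have a value above 0, and the other keratins, KRT18 and KRT5 among them, are not analysed here.

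Values are in FPKM, fragments scaled to transcript length and library size, a unit inferred from the values. All 3 keratins were scarce. By mean FPKM, KRT14 ranked 9689, KRT10 ranked 10076 and KRT8 ranked 10704 of 12017 genes. All 3 passed the filter of a mean of at least 0.5 FPKM, which left 11757 genes for testing. KRT8 passed it only through low IMF, where its mean was 1.05 FPKM against 0.334 in high IMF. The summed FPKM per library was 351119 to 415572. The table states no depth, so it was estimated from the steps of the low values, searched only within a preset range. Per library, 73.2% to 84.9% of these values fell on the chosen steps, which gave 32.9 to 40.8 M reads (M stands for mega). At that depth KRT14 rested on an estimated 0 to 83.5 reads in high and 50.1 to 242 in low IMF animals, KRT8 on 0 to 151 and 47.4 to 474, and KRT10 on 3.84 to 82.2 over all animals. The lowest values above 0, 4.29 reads for KRT14 and 5.72 for KRT8, show how coarse the lower end is. Among genes with a median of at least 10 FPKM, up to 5 of 2778 also stood at 0 in a library. Whether an exact 0 of a keratin was a true absence or a failed estimate was not tested.

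KRT14, at RefSeq's KRT19, was 0, 0.398 and 1.35 FPKM in high IMF (lowest, median and highest of 12 animals) and 0.830, 1.20 and 3.93 FPKM in low IMF. All 12 low IMF animals lay above the high IMF median, while 1 high IMF animal exceeded the median of low IMF. The groups overlapped: 5 low IMF animals exceeded every high IMF animal, and 9 high IMF animals lay below every low IMF animal. The low IMF median was 3.02 times the high IMF median. Over all tested genes, 0.153% (18 of 11757) had every low IMF animal above the high IMF median, from which nothing is read here because the gene was named for this contrast.

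KRT8, the type II keratin of the set, was 0, 0.250 and 0.995 FPKM in high IMF and 0.332, 0.870 and 3.50 FPKM in low IMF (lowest, median and highest of 12 animals each). Again all 12 low IMF animals lay above the high IMF median, 2 high IMF animals exceeded the median of low IMF, and 5 of low IMF exceeded every high IMF animal. The ratio of the low to the high IMF median was 3.48. KRT14 and KRT8 shared their extremes: both were listed at 0 in high IMF animal 8, and both were highest in low IMF animal 8.

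KRT10 did not separate the groups. It was 0.0989, 0.783 and 1.50 FPKM in high IMF and 0.104, 0.786 and 1.89 FPKM in low IMF, and 6 animals of each group lay above the other group's median. The order of the keratins by median was KRT14, KRT8, KRT10 in low IMF and KRT10, KRT14, KRT8 in high IMF. The ranges of all 3 overlapped within each group, and KRT14 and KRT8 are compared animal by animal below.

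**Figure D1:**
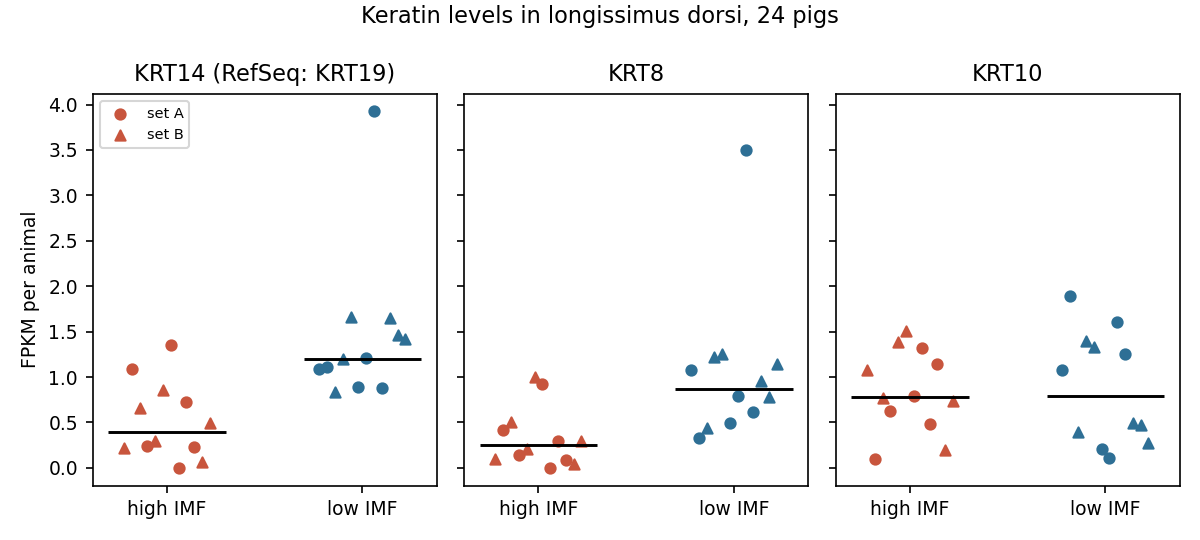
Level of KRT14, KRT8 and KRT10 in FPKM (y axis) in each high IMF (red) and low IMF (blue) animal, 1 point per animal, with circles and triangles for sets A and B of animal identifiers (defined below) and a bar at the group median. KRT14 and KRT8 sit lower in high IMF, with overlap between groups and 1 high value in low IMF, while the KRT10 medians are 0.783 and 0.786 FPKM.

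On a log2(FPKM + 1) scale, where changes of scarce genes come out too small, the high minus low difference of means was -0.68 (SE 0.152) for KRT14 and -0.58 (SE 0.156) for KRT8. For KRT10 it was 0.0053 (SE 0.170), with a 95% interval of -0.34 to 0.35 (limma adjusted p = 0.996). The authors' deposited table gives a fold of low over high of 1.611 for KRT14, 1.481 for KRT8 and 0.987 for KRT10. These folds are another measure than the ratios of FPKM medians above and are not compared with them. The median high minus low difference over all tested genes was 0.077. Trimmed mean of M values (TMM) scaling moved it to -0.000855 and the keratins to -0.72, -0.61 and -0.058 (KRT14, KRT8, KRT10). Low IMF animal 8 carried part of the KRT14 and KRT8 differences. Without it alone they were -0.58 and -0.47, and without both it and high IMF animal 8 they were -0.53 (SE 0.124) and -0.43 (SE 0.124). A pseudocount of 0.1 in place of 1 gave -1.565 and -1.534.

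In 2 libraries, low IMF animal 10 and high IMF animal 7, the 10 most abundant genes took 18.5% and 20.2% of FPKM, against at least 24.7% in the other 22. Without this pair the KRT14, KRT8 and KRT10 differences were -0.73, -0.63 and -0.018. Within groups, keratin levels were compared with the estimated depth and with that share in 6 correlations. For KRT14, r was 0.091 with depth and -0.21 with the share, for KRT8 0.075 and -0.13, and for KRT10 -0.042 and 0.23 (24 animals, permutation test, two-sided, adjusted p = 0.838 for each).

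**Figure D2:**
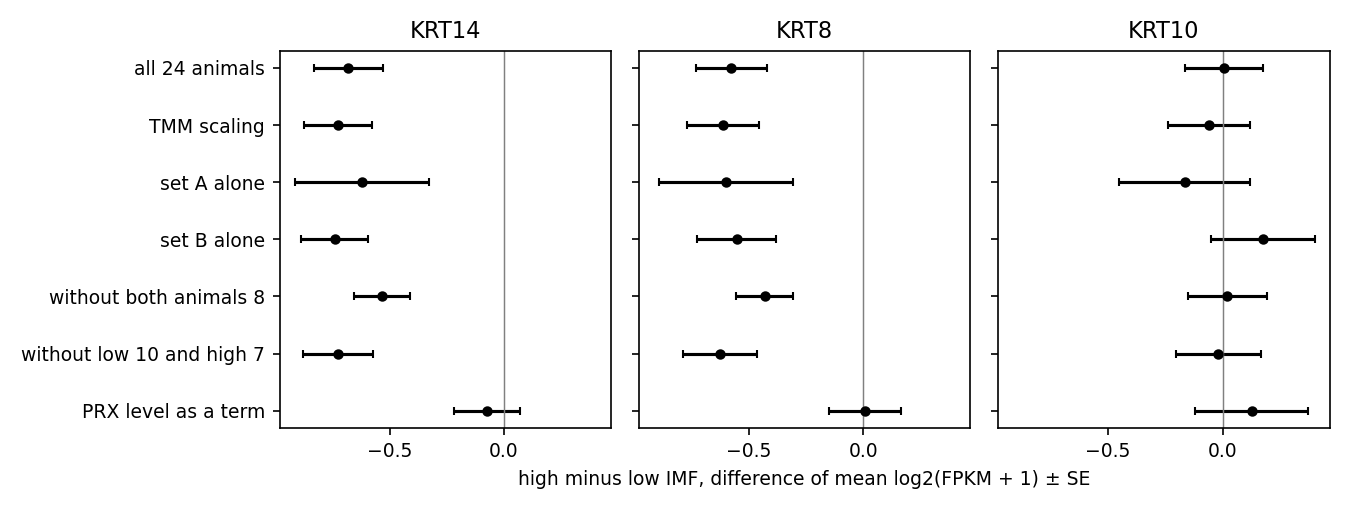
High minus low IMF difference of mean log2(FPKM + 1) for each keratin (x axis, point ± SE) with all 24 animals and under 6 other choices. The KRT14 and KRT8 points stay left of 0 in the first 6 rows. They lie near 0 (-0.074 and 0.0078) where the level of PRX, a gene described below, is a term. PRX is among the genes most like both, and nothing is read from that row. KRT10 runs from -0.17 to 0.18.

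The first 4 digits of the animal identifiers split each IMF group into sets of 6, set A with the lower digits and set B with the higher. The labels used here do not say what the digits stand for. The keratins were not chosen on this split. Between sets, B minus A, KRT14 differed by -0.061 (SE 0.155, 95% interval -0.38 to 0.26, limma adjusted p = 0.952). KRT8 differed by 0.023 (SE 0.159, -0.30 to 0.35, adjusted p = 0.988) and KRT10 by -0.012 (SE 0.173, -0.37 to 0.34, adjusted p = 0.994). None of the 11757 genes passed between sets (0%), while 762 (6.48%) had an unadjusted limma p under 0.05.

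The IMF difference of KRT14 and KRT8 was present in both sets. In set A the KRT14 median was 0.479 FPKM in high and 1.10 FPKM in low IMF, a difference of means of -0.62 (SE 0.294) on the log2 scale. In set B the medians were 0.398 and 1.44 FPKM, and the difference was -0.74 (SE 0.147). For KRT8 the medians were 0.220 and 0.699 FPKM in set A (-0.60, SE 0.293) and 0.250 and 1.05 FPKM in set B (-0.55, SE 0.174). For KRT10 the sign was not the same in both sets, at -0.17 (SE 0.286) and 0.18 (SE 0.227). The differences between sets were -0.12 (SE 0.315) for KRT14, 0.046 (SE 0.325) for KRT8 and 0.34 (SE 0.347) for KRT10, with limma adjusted p = 0.998, 0.999 and 0.998 for the interaction. No gene passed this test (0%), and 387 (3.29%) had an unadjusted p under 0.05.

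Whether the keratins vary together among animals was asked within each IMF group, where the choice of KRT14 and KRT8 by the group difference does not set the answer. In high IMF, KRT8 followed KRT14 from animal to animal, with Pearson r = 0.890 (permutation p = 0.00013, adjusted over 6 tests 0.00078) and Spearman rho = 0.944 (p = 3e-05, adjusted 0.00018) over 12 animals. Without the 2 animals farthest from the KRT14 median, r was 0.896. In low IMF, r was 0.908 (permutation p = 0.00112, adjusted 0.00336) and rho 0.720 (p = 0.0107, adjusted 0.0321), but r was 0.590 (adjusted p = 0.226) without the 2 animals farthest from the median and 0.669 (adjusted p = 0.0852) without low IMF animal 8 alone. Without those animals the low IMF r was thus still positive, but lower and not past the threshold. No relation of KRT10 to either passed the test: with KRT14, r was -0.218 in high and 0.317 in low IMF (permutation test, adjusted p = 0.590 and 0.532), and with KRT8 0.0876 and 0.326 (adjusted p = 0.791 and 0.532).

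KRT8 and KRT14 were set side by side within an animal on the FPKM scale, which is per length and so rests on the listed lengths of 3716 and 1693 bases. In the 23 animals with both above 0, KRT8 FPKM divided by KRT14 FPKM was 0.298 at the lowest, 0.608 at the median and 1.17 at the highest. KRT8 was the lower of the pair in 21 of 23 animals by FPKM, while it had more estimated reads than KRT14 in 19 of 23. The median ratio was 0.593 in 11 high IMF and 0.672 in 12 low IMF animals, with ranges that overlapped.

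**Figure D3:**
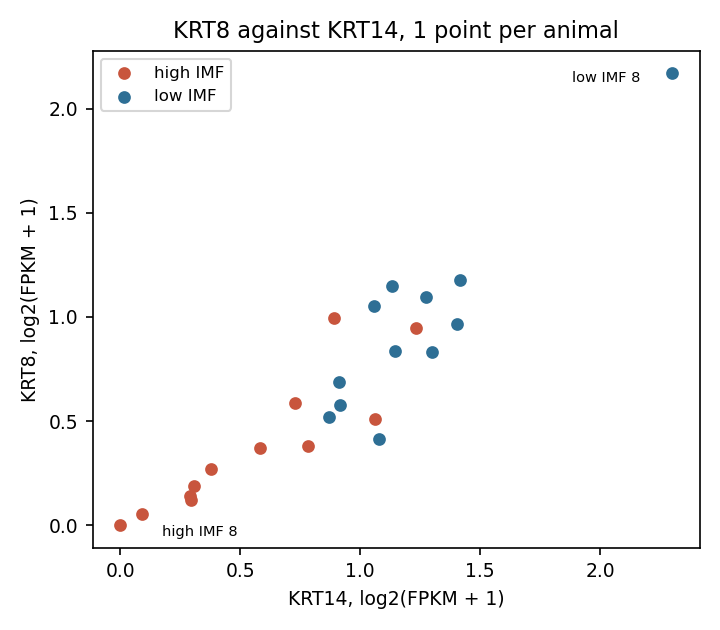
KRT8 against KRT14, both as log2(FPKM + 1), 1 point per animal, red for high and blue for low IMF. The points rise together from high IMF animal 8, listed at 0 in both genes, to low IMF animal 8, which stands apart at the upper right; r is 0.890 within high and 0.908 within low IMF.

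The genes most like KRT14 and KRT8 were ranked by Pearson r of log2(FPKM + 1) over 24 animals after each group's mean was removed, among 11756 genes. The bulk of genes was near 0, with a median r of 0.058 for KRT14 (1st to 99th percentile -0.39 to 0.44) and 0.027 for KRT8 (-0.39 to 0.41). KRT8 was the gene most like KRT14, and KRT14 the gene most like KRT8 (r = 0.887, rho = 0.832, and r = 0.793 without the 2 animals farthest on KRT14). Next among the genes reported were PRX and ITGB4 for both. PRX encodes periaxin, a scaffold protein of myelinating Schwann cells, the glia that wrap peripheral axons. ITGB4 encodes integrin beta 4, the hemidesmosome receptor subunit that anchors keratin filaments to the basement membrane, which Schwann cells also carry.

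PRX had r = 0.801 and rho = 0.664 with KRT14, and r = 0.748 and rho = 0.633 with KRT8. ITGB4 had r = 0.791 and rho = 0.675 with KRT14, and r = 0.781 and rho = 0.675 with KRT8. Without the 2 animals farthest on KRT14, its r was 0.764 with PRX and 0.690 with ITGB4. Lower in the order came HNRNPA0, an RNA-binding protein, for KRT14 (r = 0.681, rho = 0.541) and SBSPON, a secreted matrix protein, for KRT8 (r = 0.662, rho = 0.636). HNRNPA0 was listed at 0 in 3 animals and ranged up to 21.5 FPKM.

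A fit across all genes, with the IMF group and the keratin level as terms, tested which genes followed a keratin among animals of the same group. It was added after the data were seen. With KRT14 as the term, 4 of 11756 genes passed (0.034%), all positively, among them KRT8, PRX and ITGB4. KRT8 rose by 0.91 on the log2 scale per unit of KRT14 (SE 0.112, limma adjusted p = 0.000197), PRX by 0.72 (SE 0.127, adjusted p = 0.0282) and ITGB4 by 0.70 (SE 0.129, adjusted p = 0.0362). With KRT8 as the term, 2 genes passed (0.017%), among them KRT14 (0.86, SE 0.108, adjusted p = 0.000304). The slope of ITGB4 on KRT8 was 0.67 (adjusted p = 0.0724, and 0.0148 with TMM scaling) and that of PRX was 0.65 (adjusted p = 0.117). No gene passed for KRT10, and 674 (5.73%) had an unadjusted limma p under 0.05.

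The calls of KRT8 on KRT14 and of KRT14 on KRT8 held with each of the 24 animals left out in turn, at a limma adjusted p of 7.06e-05 to 0.0449 and 0.00014 to 0.0474. PRX missed the threshold in 6 of the 24 (highest adjusted p 0.573) and ITGB4 in 15 (highest 0.809), both highest without low IMF animal 8, at slopes of 0.64 to 0.79 and 0.65 to 0.73. Without both animals numbered 8 the slopes on KRT14 were 0.80 for KRT8, 0.82 for PRX and 0.71 for ITGB4, near their size with all animals, with adjusted p = 0.114, 0.286 and 0.903. With them left out, 1 gene passed for KRT14 and 1 for KRT8. A pseudocount of 0.1 kept the call of KRT8 on KRT14, at a slope of 0.94 (limma adjusted p = 0.000116). It gave lower slopes on KRT14 for PRX, at 0.39 (adjusted p = 0.99), and ITGB4, at 0.34 (adjusted p = 0.889), and neither passed.

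PRX itself was 0.426, 0.957 and 2.48 FPKM in high IMF and 1.47, 2.24 and 4.53 FPKM in low IMF (lowest, median and highest of 12 animals). All 12 low IMF animals lay above the high IMF median. Its high minus low difference was -0.68 (SE 0.140, limma adjusted p = 0.0693), and with TMM scaling -0.75 (SE 0.138, adjusted p = 0.0291). ITGB4 was 1.04, 1.70 and 3.62 FPKM against 1.77, 2.57 and 5.43 FPKM, a difference of -0.34 (SE 0.139, adjusted p = 0.560). With the level of PRX as a term in the fit, a choice made after values were seen, the high minus low difference was -0.074 (SE 0.143) for KRT14 and 0.0078 (SE 0.158) for KRT8. PRX is among the genes most like both keratins and was itself lower in high IMF. Nothing is therefore read from the differences near 0. What links PRX and the keratins was not tested.

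**Figure D4:**
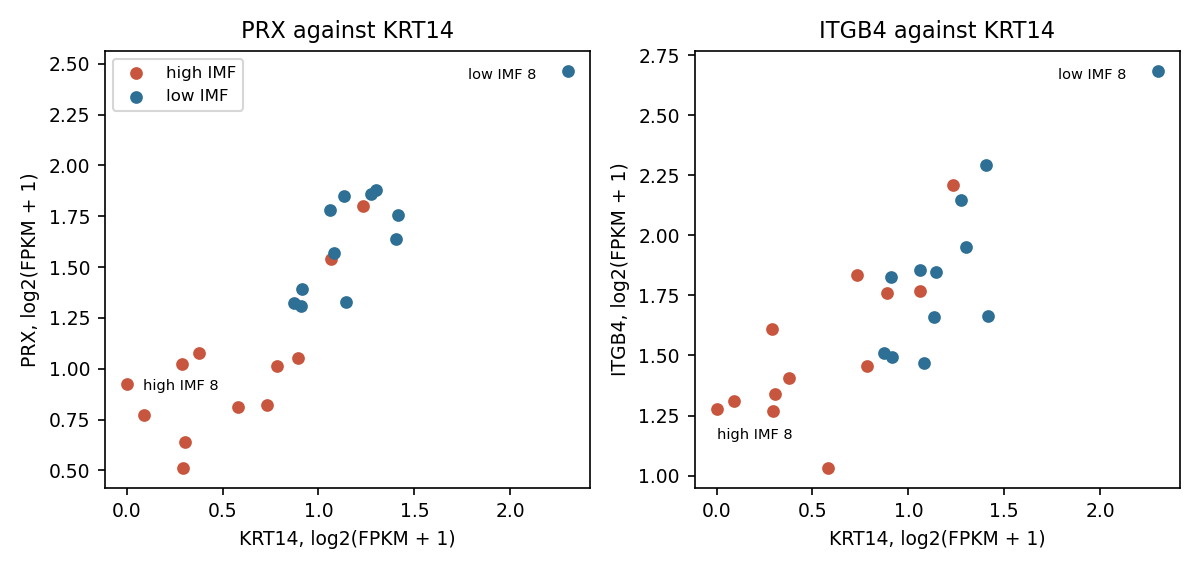
PRX (left) and ITGB4 (right) against KRT14, all as log2(FPKM + 1), 1 point per animal, red for high and blue for low IMF. Both rise with KRT14 across animals (group-centred r = 0.801 and 0.791), and low IMF animal 8 is highest on every axis.

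Genes that act with keratins were then read from lists, against 6 of 11757 genes (0.051%) past the limma threshold between high and low IMF, 5 higher (0.0425%) and 1 lower (0.00851%), 903 (7.68%) with an unadjusted p under 0.05, and a median difference of 0.077. Of 24 proteins of the junctions that anchor keratins, desmosomes and hemidesmosomes, 10 were measured and none passed in either direction, with a median difference of 0.069 and 1 member, ITGB4, at an unadjusted limma p under 0.05. PPL, the desmosomal linker periplakin, was 4.28 FPKM at the median in high and 3.57 in low IMF (0.20, adjusted p = 0.717). PKP4, a plakophilin, was 2.75 against 1.83 FPKM (0.31, adjusted p = 0.670). PLEC, or plectin, which links intermediate filaments to other structures, was the most abundant at 22.8 and 23.1 FPKM (0.26, adjusted p = 0.889). The median r of the 10 was 0.26 with KRT14 and 0.24 with KRT8, against 0.058 and 0.027 over all genes. Apart from ITGB4, no member exceeded the 99th percentile of all genes for KRT14 or KRT8. ITGA6, the integrin partner of ITGB4, had r = 0.19 with KRT14 and 0.24 with KRT8.

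Of 20 costamere proteins, 18 were measured and none passed in either direction (1 at an unadjusted limma p under 0.05), at a median difference of 0.047 and a median r of 0.11 with KRT14 and 0.067 with KRT8. DMD, or dystrophin, which binds the costamere to the membrane, had r = 0.13 with KRT14. ITGA7, the laminin receptor subunit of muscle fibres, was 24.7 FPKM at the median in high and 31.5 in low IMF (-0.85, SE 0.315, adjusted p = 0.531) and had r = -0.085 with KRT14. FLNC, the muscle filamin, was the most abundant at 296 and 306 FPKM (0.033, adjusted p = 0.985).

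Of 16 other intermediate filament genes, 8 were measured and none passed (2 at an unadjusted limma p under 0.05, SYNC and LMNA), with a median difference of 0.071. DES, the muscle filament desmin, was 2567 FPKM at the median in high and 2700 in low IMF (-0.042, adjusted p = 0.949), with r = 0.039 with KRT14 and -0.11 with KRT8. Vimentin (VIM), the filament of connective tissue and vessel cells, was 44.0 and 37.8 FPKM (0.25, adjusted p = 0.704). LMNA, the nuclear lamin A/C, differed by 1.01 (adjusted p = 0.594) and SYNC, or syncoilin, by 0.46 (adjusted p = 0.586). Of 18 keratin-binding and regulatory genes, 13 were measured and none passed (0 also at an unadjusted limma p under 0.05), at a median difference of 0.041. FBF1, a keratin-binding protein, differed by 0.18 (adjusted p = 0.690) and DNAJB6, a chaperone that binds keratins, by 0.25 (adjusted p = 0.663). With TMM scaling none of these 4 lists had a member past the threshold, and the median differences turned to -0.0080 for junction, -0.062 for costamere, -0.0055 for other intermediate filament and -0.050 for keratin-binding genes.

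Markers of cells that could carry keratins were set beside them. Of 16 epithelial markers 3 were measured (CLDN7, S100A14 and PERP), none of which passed (0 also at an unadjusted limma p under 0.05), and their summed level was 11.2 to 29.2 FPKM in high and 13.6 to 28.5 FPKM in low IMF. Their r with KRT14 was -0.13 to 0.049. EPCAM and CDH1, which define epithelia, were not among the listed transcripts. None of 12 keratinocyte markers was listed, and of 5 mesothelial markers only LRRN4 was (r = -0.099 with KRT14). The listing rule keeps out transcripts seen in few animals, so these markers are below it or not analysed here, and nothing further is read from them.

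Schwann cell markers moved with KRT14 and KRT8 in part. Of 12, 6 were measured, and the summed level was 19.3 to 41.7 FPKM (median 32.8) in high and 29.7 to 88.9 FPKM (median 40.6) in low IMF. All 6 had a negative high minus low difference, against 3130 of 11757 genes in all. The median difference was -0.29, 2 had an unadjusted limma p under 0.05, and 1 passed as lower. NGFR, at -0.021 (SE 0.107), and EGR2, at -0.065 (SE 0.141), were near 0. With TMM scaling, where 5886 of 11730 genes were negative, all 6 stayed negative. There the median was -0.40 and 2 passed as lower, among them PRX. The share of all genes called with TMM scaling is not given here, so nothing is read from the rise from 1 to 2. The median r of the 6 markers was 0.31 with KRT14 and 0.29 with KRT8. The members were uneven. Beside PRX, the myelin protein PMP22 had r = 0.40 with KRT14 and 0.33 with KRT8, and MBP, myelin basic protein, 0.23 and 0.26. By rank the relations were weaker, with rho = 0.21 and 0.20 for PMP22 and -0.035 and 0.0070 for MBP. Without both animals numbered 8, r was 0.12 and 0.061 for PMP22 and -0.058 and -0.087 for MBP. NGFR, a receptor of immature Schwann cells, had r = 0.029 and 0.16, and EGR2, the transcription factor of myelination, -0.099 and -0.25. PMP22 was 11.5 FPKM at the median in high and 14.6 in low IMF (-0.41, adjusted p = 0.725), and MBP was 13.0 and 13.3 FPKM (-0.18, adjusted p = 0.834). SOX10 and S100B, which also mark these cells, were not among the listed transcripts. The part of these cells in the keratin levels was not tested.

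Fat cell markers had r close to that of all genes. The 10 adipocyte markers, at 11 loci, had a median difference of 0.86. At an unadjusted limma p under 0.05 were 10 of the 11 loci, against 7.68% of all genes. Past the threshold as higher were 2, or 3 with TMM scaling, for which no share over all genes is given. The median r of the list was 0.038 with KRT14 and 0.063 with KRT8. ADIPOQ, which encodes the fat cell hormone adiponectin, had r = 0.015 with KRT14, and LEP, which encodes leptin, -0.069. LEP was also 1 of the 2 loci past the threshold as higher (limma adjusted p = 0.00697). It met the filter of 0.5 FPKM only through the high IMF animals, which averaged 0.888 FPKM. The low IMF average was 0.175 FPKM. That LEP was tested, and so counted, thus depended in part on the group where it was higher. The 9 muscle fibre markers, led by the actin gene ACTA1 at 22865 and 30337 FPKM at the median, had a median r of 0.14 with both keratins. For 11 measured markers of regenerating or denervated fibres it was -0.041 with KRT14 and -0.14 with KRT8, for 4 of satellite cells, the muscle stem cells, -0.026 and -0.00085, and for 6 of smooth muscle 0.25 and 0.20. No member of these 4 lists passed between groups, and in this order 1, 1, 1 and 0 members had an unadjusted limma p under 0.05.

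**Figure D5:**
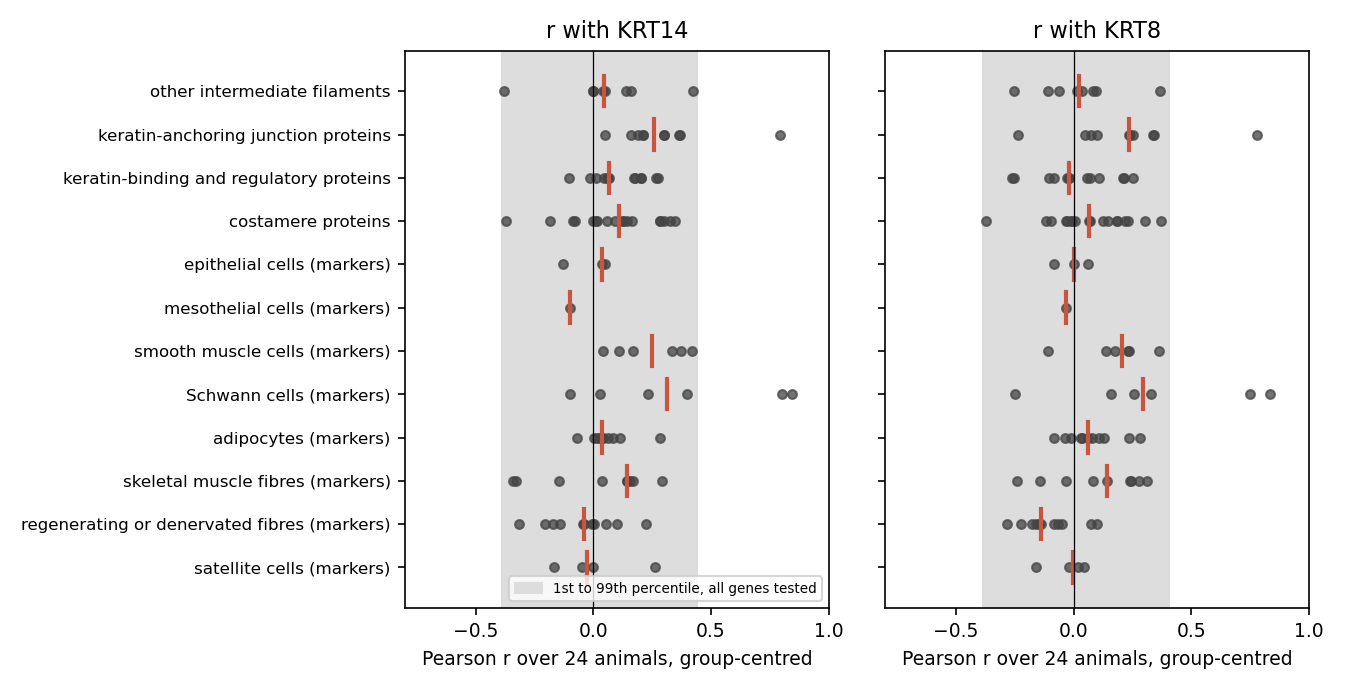
Group-centred Pearson r over 24 animals (x axis) with KRT14 (left) and KRT8 (right) for each measured member of the lists (grey points, 1 row per list, red bar at the median), over a band from the 1st to the 99th percentile of all genes. ITGB4 among junction proteins and PRX among Schwann cell markers lie to the right of the band, while adipocyte, costamere and epithelial members lie within it.

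KRT10 had other near genes, named here after their values were seen. LSM10, a protein of histone RNA processing, was the most like it (r = 0.743, rho = 0.710), followed by LGALS3BP (r = 0.709), TMEM138 (r = 0.709), USP18 (r = 0.708, rho = 0.790) and ISG15 (r = 0.704, rho = 0.738). ISG15 is an interferon-induced protein tag, and USP18 is the enzyme that removes it. The 1st to 99th percentile of r over all genes was -0.53 to 0.46 for KRT10. None passed in the fit with KRT10 as a term (limma adjusted p = 0.162 for LSM10, LGALS3BP, USP18 and ISG15, and 0.329 for TMEM138).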

How the data were processed

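RNA of 24 muscles, 12 per group, was sequenced, and the authors deposited 1 table of FPKM values per assembled transcript and animal; the unit was inferred from the values. HISAT2 2.0.5, StringTie 1.3.3 and the build Sscrofa11.1 are named in the submitters' processing notes, with no roles. Per the file headers, the deposited table also holds a fold change, whose ratio is low over high, and p-values and q-values, which were not used. FPKM was summed per symbol and chromosome. The test was limma 3.58.1 (R 4.3.3) on log2(FPKM + 1), with trend and robust moderation, over the 11757 genes whose mean was 0.5 FPKM or more, and a Benjamini-Hochberg threshold of 0.05. TMM factors, with 30% of ratios and 5% of levels trimmed at each end, were computed on FPKM, and no count model was used. Correlations used two-sided permutation tests with 100000 resamples (Python 3.11.15, numpy 2.4.6, scipy 1.17.1). The fits were tested on simulated data. Each library is 1 animal.

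Members and lists were chosen with earlier results of these data known. Named genes were all keratins, per list the most abundant member and up to 3 of smallest p, and the 5 most like KRT14 and KRT8; others were chosen after their values were seen. One item that meets these rules is not reported here, although counts and sums include it. RefSeq positions were used after a check that symbols lie at the same places on Sscrofa11.1. Alternatives were TMM and upper-quartile scaling, a pseudocount of 0.1, no filter, the identifier digits as a term, 1 animal per shared 9 digits, reference transcripts alone, transcripts as units, and animals left out.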

Additional observations from a re-analysis of the deposited data

How the results depend on the processing

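Of 420 values under alternatives, 372 stayed on their side of the threshold or, without a test, moved by less than the spread, and counts stayed near their size. Differences near 0 changed sign among these, as KRT10 did between high and low IMF (-0.0584 with TMM and -0.06196 with upper-quartile scaling) and all 3 keratins did between identifier sets. Most of the 420 values repeat the same results with a single animal left out, so the count says little about the other choices. The high minus low difference kept its sign in KRT14 under each alternative and in KRT8 under each but 1. With a pseudocount of 0.1 it was -1.565 and -1.534. With PRX as a term, chosen after the data were seen, it was -0.07386 for KRT14 and 0.007796 for KRT8, whose sign turned. Nothing is read from this term, since PRX is among the genes most like both keratins. With 1 animal kept per shared 9 identifier digits, it was -0.532 for KRT14 and -0.4324 for KRT8. That choice drops both animals numbered 8, among others. Leaving out each animal in turn gave -0.742 to -0.5831 for KRT14, -0.6325 to -0.4661 for KRT8 and -0.05745 to 0.06919 for KRT10. Between identifier sets the same gave -0.1169 to 0.03743, -0.03461 to 0.1396 and -0.07974 to 0.05353. The low IMF correlation of KRT14 and KRT8 missed the threshold without the 2 animals farthest on KRT14 (0.5904) and without low IMF animal 8 (0.6686). With TMM scaling, for which the share of calls over all genes is not given, the marker lists held 2 lower genes in place of 1. Genes that followed KRT14 numbered 1 without both animals numbered 8 and 2 with a pseudocount of 0.1, against 4, and 2 to 4 with single animals left out, being 2 without high IMF animal 2, 4 or 7 or low IMF animal 3, 6 or 8. Those that followed KRT8 numbered 1 without both animals numbered 8, against 2, and 2 to 3 with single animals left out. The causes were not tested. Reference transcripts alone gave no KRT10 value, since its transcript was added by the assembly. No paired analysis was possible because the replicate numbers follow accession order and pair no animals. At 0 to 474 estimated reads per keratin and library, small differences were not detectable.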

Other observations

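A locus without a symbol in the table lies on the same stretch of chromosome 12 as KRT14, on the plus strand at 21087103 to 21088677 of Sscrofa11.1, with 2 exons, where RefSeq places the transcribed pseudogene LOC100515685. It was 0.264, 0.826 and 1.52 FPKM in high IMF and 0.318, 0.839 and 2.18 FPKM in low IMF (lowest, median and highest of 12 animals). Its high minus low difference on the log2(FPKM + 1) scale was -0.052 (SE 0.140, limma adjusted p = 0.952), and its group-centred r over 24 animals was -0.105 with KRT14 and -0.037 with KRT8. The groups overlapped from 0.318 to 1.52 FPKM.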
